A study of Chlamydomonas reinhardtii with 18 samples.

Results

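The subject is the later phase of a dark incubation of the green alga *Chlamydomonas reinhardtii*, from 3 to 24 h, in cultures that received no nitrite. The libraries were chosen by their labels: 3 control libraries of 24 h and 3 control libraries of 3 h, 6 of the 18 in the series, with all 17766 features of each table. Of these features 13564 had enough reads to be tested and 4202 did not. All cells were of strain 6145c and were kept in darkness at 25 °C. The hours count from the moment at which the parallel arm of the study received 10 mM nitrite, and the length of darkness before that moment is not stated. The other libraries used are the control libraries of 15 min, which shared every condition except time, and the nitrite libraries of 24 h and 3 h. Each group held 3 libraries, and per the design text each arm had 3 flasks in all. The labels do not tie a library to a flask, so the p-values measure the spread between these libraries. The assay was sequencing of polyadenylated RNA. Levels are given in CPM, the reads of a feature relative to the scaled size of its own library, and are not corrected for gene length. The scaled size is the total of reads in genes multiplied by the library's scaling factor (the TMM method). It ran from 4045302 in control 3 h number 3 to 12007996 in control 15 min number 1, and a low factor raises the CPM of a library. In bulk samples fewer cells with a transcript and less of it per cell cannot be told apart.

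*C. reinhardtii* is a single-celled alga that can live on light or on acetate. In light, antenna proteins gather photons for the photosystems, and the Calvin cycle fixes carbon dioxide. In darkness the cell depends on respiration, on the glyoxylate cycle where acetate is present, on its starch and, without oxygen, on fermentation. Chlamydomonas cells still make chlorophyll in the dark. Neither the deposited tables nor the reference gene table pairs nuclear identifiers with names. Functions of nuclear loci are therefore given only for whole lists of loci drawn up from general knowledge, an assignment that could not be tested on these files. The mitochondrial genes are named in the tables themselves.

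Between 3 and 24 h the transcript population changed widely. By edgeR's quasi-likelihood test (adjusted p under 0.05), 5637 features changed, which is 41.6% of those tested. Of these, 2681 were higher at 24 h (19.8%) and 2956 were lower (21.8%). Falls were deeper than rises: 786 features fell and 302 rose at least 4-fold, and 305 fell and 74 rose at least 8-fold. Changes of at least 2-fold were called for 3546 features (26.1%). The median log2 fold change was -1.37 over the features that fell and 1.06 over those that rose, against -0.02 over all features tested. In 7081 features (52.2%) the 3 libraries of 24 h did not overlap those of 3 h, and 5350 of the 5637 called features were among them. Features that rose carried 23.6% to 26.8% of the reads of the 24 h libraries and 5.86% to 10.6% of those of 3 h. Features that fell carried 18.4% to 21.5% at 24 h and 34.7% to 39.2% at 3 h. Both sets were called on these same libraries, so the direction of these shares follows from the call.

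**Figure D1:**
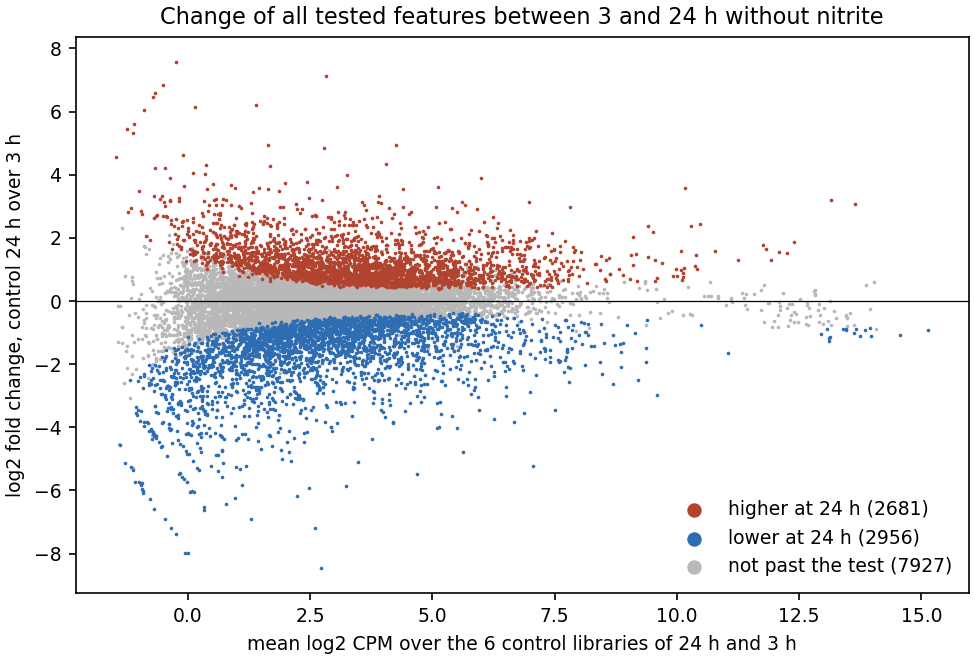
Each point is 1 of the 13564 tested features, with its mean log2 CPM over the 6 control libraries of 24 h and 3 h on the x axis and its log2 fold change, 24 h over 3 h, on the y axis. The 2681 features that rose lie above 0 and the 2956 that fell lie below it, and the falls reach further than the rises at middle levels.

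The libraries held 6695500 to 8249693 reads in genes. On the first principal component of the 9 control libraries, with 60.6% of the variance, the 24 h libraries lay at -85.2 to -71.6 and the 3 h libraries at 37.7 to 43, beside those of 15 min at 36 to 40.3. The 3 h libraries differed among themselves. For control 3 h number 3 the place on the second component was 62.6, where numbers 2 and 1 stood at 24.9 and -0.8. Reads with more than 1 alignment made up 36.5% of its reads, against 16.7% to 19.4% in the other 5 libraries compared, its 100 most abundant genes took 81.6% of its gene reads against 64.8% to 75%, and its scaling factor was 0.604 against 0.892 to 1.323. Control 3 h number 1 lay nearer to the mean of the nitrite 3 h group (a distance of 51.7 over log2 CPM) than to the others of its own group (67.6). In the nitrite arm the library labelled nitrite 15 min number 2 lay nearer to the mean of the nitrite 3 h group (38.9) than to the others of its own group (77.4), and nitrite 3 h number 2 lay nearer to the nitrite 15 min group (39.4) than to its own (76.3). Without that pair of nitrite libraries in the fit 6601 features changed in the control arm. Without control 3 h number 1 alone 5206 features changed, 4668 of them among the 5637. Without control 3 h number 3 alone 5172 features changed, 4823 of them among the 5637. With 1 of the 6 libraries left out in turn, 3718 of the 5637 calls (66%) were made in every one of the 6 fits, 1720 rises and 1998 falls.

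The loci with the largest rises and falls had few or no reads at 1 of the 2 times. These loci were picked from called features without overlap between the 2 times, so their separation was part of the choice. Cre06.g292315 (chromosome 6, 6412147 to 6413598) stood at 68.5, 52.6 and 92.4 CPM in the 24 h libraries and 0.21, 0.85 and 0.494 CPM in the 3 h libraries. Every library of 24 h was far above every library of 3 h, and the log2 fold change was 7.14 ± 0.43 (SE, edgeR's adjusted p = 2.09e-10). Cre06.g254300 (chromosome 6, 824863 to 826768) stood at 14.4, 10.1 and 21.9 CPM at 24 h and 0.105, 0.142 and 0.494 CPM at 3 h, a log2 fold change of 6.19 ± 0.53 (SE, edgeR's adjusted p = 1.98e-08). The control libraries of 15 min were as low as those of 3 h for both, at 0.585 to 1.15 CPM for Cre06.g292315 and 0.351 to 0.43 CPM for Cre06.g254300. Among the falls, Cre24.g755997 (an unplaced sequence, 118246 to 122121) had 6 reads over the 24 h libraries, at 0.392, 0.373 and 0 CPM, and 1908 over those of 3 h, at 91.9, 79.9 and 116 CPM. The fold change on the log2 scale was -8.44 ± 1.27 (SE, edgeR's adjusted p = 6.49e-05). Cre12.g546600 (chromosome 12, 8666912 to 8670847) stood at 0.261, 0.497 and 0.409 CPM at 24 h, from 9 reads, and 47, 62.5 and 69 CPM at 3 h, a log2 fold change of -7.19 ± 0.51 (SE, edgeR's adjusted p = 3.59e-09). Both were close to undetected in each of the 3 libraries of 24 h. At 15 min they stood at 201 to 233 CPM and 74.3 to 86 CPM.

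Transcripts of the light-harvesting antenna fell together. This list was entered for the chlorophyll-binding proteins around photosystems I and II. Of its 20 members, all tested, 18 fell, 0 rose and 2 did not pass, with a median log2 fold change of -2.45. Over all features tested 19.8% rose and 21.8% fell, with a median of -0.02, and the counts of every list stand beside these shares. The libraries of 24 h lay wholly below those of 3 h for 18 of the 20 members, against 26.7% of all features. These were the 18 that fell. Of all 5637 called features 5350 were without overlap, so the separation is not independent of the calls. Summed over the 20 loci, the antenna came to 318, 293 and 350.2 CPM at 24 h and 1262, 1793 and 2569 CPM at 3 h. It was lowest in the 24 h libraries, which differed little from each other, while the 3 h libraries spread over a wider range. The member with the highest mean CPM over the 6 libraries together, Cre01.g066917 (chromosome 1, 7954526 to 7956348), stood at 19.2, 18.8 and 29.7 CPM at 24 h and 499, 785 and 1252 CPM at 3 h. Every 24 h library was far below every 3 h library, and the log2 fold change was -5.23 ± 0.41 (SE, edgeR's adjusted p = 7.61e-09). The second by that pooled mean, Cre11.g467573 (chromosome 11, 348422 to 351813) and the highest of the list at 24 h, stood at 83.2, 68.6 and 82 CPM at 24 h and 124, 165 and 187 CPM at 3 h, a smaller log2 fold change of -1.03 ± 0.21 (SE, edgeR's adjusted p = 0.000569). Cre06.g278213 fell furthest in the fit, with a log2 fold change of -5.58 ± 0.77 (SE, edgeR's adjusted p = 1.43e-05), at 0.261, 0.124 and 0 CPM at 24 h and 5.56, 7.37 and 8.4 CPM at 3 h. Only 3 reads of it remained at 24 h against 139 at 3 h, a ratio of 0.0193 (exact 95% interval 0.00394 to 0.0577, counting error only). The members that did not pass were Cre06.g284200, at 2.48, 2.73 and 3.13 CPM at 24 h and 2.62, 2.27 and 4.2 CPM at 3 h, and Cre06.g284250, at 0.131, 0 and 0.273 CPM and 0.42, 0.142 and 2.47 CPM, both at low levels. Of the 18 calls, 17 were made with any 1 control library left out, and Cre10.g425900 lost its call in 3 of the 6 fits (adjusted p up to 0.0876) and without scaling (0.159). The photoprotection list of stress-related antenna proteins had 0 of 3 members with enough reads to test, and its sum was at most 0.523 CPM in any 24 h library and 1.24 CPM in any 3 h library.

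Other parts of the photosynthetic apparatus fell with the antenna, though not every member did. The photosystem list was entered for nuclear subunits of both photosystems, their electron carriers and the chloroplast ATP synthase. Of its 10 members 8 fell, 0 rose and 2 did not pass, with a median log2 fold change of -2.30, where 21.8% of all features fell. The sum of the list did not follow these counts, at 7741, 7407 and 7370 CPM at 24 h and 5494, 8377 and 11910 CPM at 3 h, so that the 24 h sums lay inside the range of 3 h. Cre12.g550850 fell furthest, to 7.71, 6.84 and 12.1 CPM at 24 h, against 115, 145 and 167 CPM at 3 h, a log2 fold change of -4.00 ± 0.31 (SE, edgeR's adjusted p = 3.59e-09). The members that did not pass had the highest CPM of the list. Cre14.g626700 stood at 6360, 6146 and 6096 CPM at 24 h and 3475, 5793 and 8714 CPM at 3 h, so that the 24 h values lay within the spread of 3 h (log2 fold change 0.05 ± 0.27 SE, edgeR's adjusted p = 0.9). Cre06.g259900 stood at 1030, 912 and 932 CPM at 24 h and 1116, 1304 and 1516 CPM at 3 h, lower in every library without a call (log2 fold change -0.45 ± 0.19 SE, edgeR's adjusted p = 0.0608), and it passed with DESeq2 (adjusted p = 0.00945) and voom (adjusted p = 0.0484). All 8 falls were called with any 1 control library left out, and Cre09.g412100 lost its call without scaling (adjusted p = 0.0777).

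**Figure D2:**
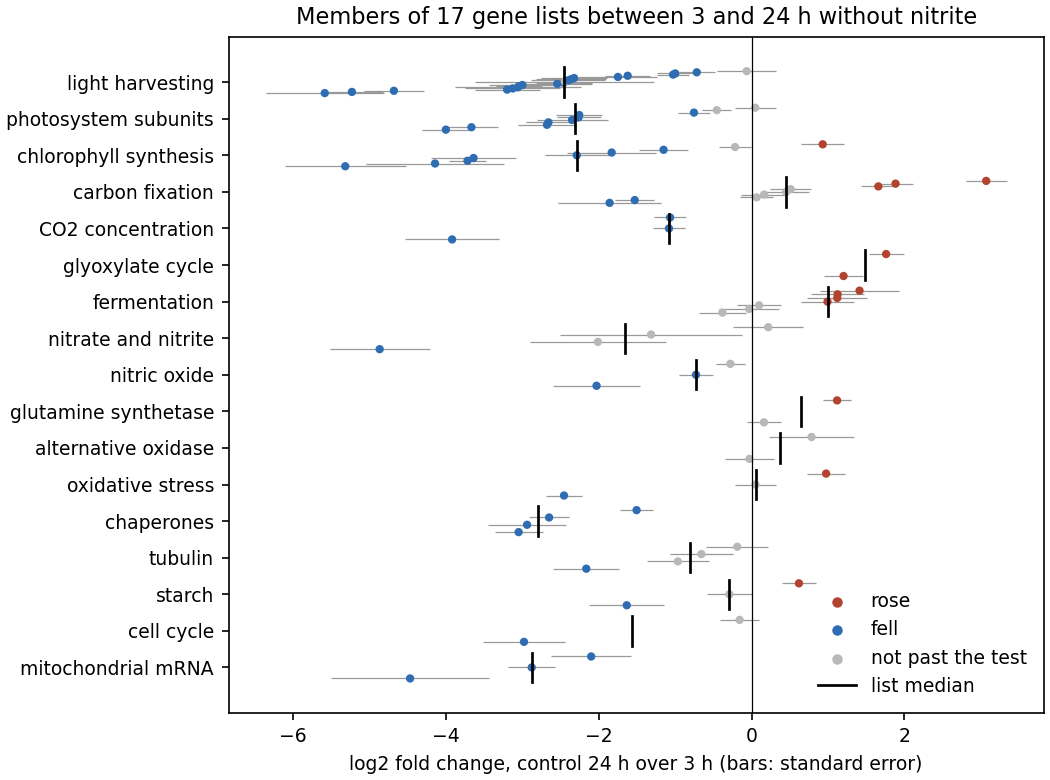
Each point is the log2 fold change of 1 tested locus, control 24 h over 3 h, with its standard error as a bar, and the black mark is the median of the list. The antenna, photosystem and chlorophyll lists and the chaperones lie mostly between -1 and -6, the glyoxylate pair lies above 0, and the carbon fixation list spreads from -1.86 to 3.07.

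Most loci entered for chlorophyll synthesis fell as well. Of the 9 members 7 fell, 1 rose and 1 did not pass, with a median log2 fold change of -2.29. Summed over the list, levels were 74.5, 65.8 and 68.1 CPM at 15 min, 164, 160.4 and 146 CPM at 3 h and 64.9, 67.5 and 76.4 CPM at 24 h. The 3 h sums lay above the others. At 24 h the sum lay mostly in Cre07.g342150 and Cre02.g091050, which did not fall. Loci that fell could lie well below 15 min: Cre07.g346050 stood at 11.6 to 16 CPM at 15 min, 16.6 to 20 CPM at 3 h and 1.18 to 1.64 CPM at 24 h. Cre06.g306300 stood at 7.6 to 9.33 CPM at 15 min, 34.2 to 39.3 CPM at 3 h and 1.09 to 4.31 CPM at 24 h. Both loci, named after their values were seen, were lower in every 24 h library than in any of 15 min. Cre05.g242000 fell furthest, to 0.261, 0.249 and 0.136 CPM at 24 h (5 reads), against 9.45, 9.49 and 8.65 CPM at 3 h, a log2 fold change of -5.31 ± 0.79 (SE, edgeR's adjusted p = 3.63e-05). Its 15 min libraries stood at 1.29 to 1.87 CPM, and its rise from 15 min to 3 h was also past the test, with a log2 fold change of 2.52 ± 0.56 (SE, edgeR's adjusted p = 0.0394). Of the 9 members 3 rose over that earlier interval past the test. That earlier comparison shares the 3 h libraries and called 171 features, 1.26% of those tested, 118 higher and 53 lower at 3 h. Cre02.g091050 rose, with 19.9, 24.4 and 33.9 CPM at 24 h and 11.6, 11.1 and 19.3 CPM at 3 h. The log2 fold change was 0.93 ± 0.28 (SE, edgeR's adjusted p = 0.0114), and the call was lost when control 24 h number 3 (adjusted p = 0.0756) or either of control 3 h numbers 1 (0.0559) and 2 (0.0646) was left out. Cre07.g342150, with the highest mean CPM of the list over the 6 libraries together, did not pass (log2 fold change -0.21 ± 0.21 SE, edgeR's adjusted p = 0.437), at 24.9 to 31.6 CPM at 24 h and 22.5 to 40.6 CPM at 3 h. Without 1 control library, Cre07.g325500 lost its call in 3 of 6 fits (adjusted p up to 0.0807), and the other 6 falls were called in all 6.

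The carbon fixation list, entered for enzymes of the Calvin cycle, moved both ways. Of its 9 members 3 rose, 2 fell and 4 did not pass, and its median log2 fold change was 0.45. Of all features 19.8% rose and 21.8% fell, so the share of falls in the list was near that of all features. Without control 3 h number 3 and the pair of nitrite libraries named above 4 rose and 1 fell. The list came to 77740, 73890 and 76460 CPM at 24 h and 17760, 24690 and 32970 CPM at 3 h in sum, so every 24 h library was far above every 3 h library. The member with the highest CPM at 24 h was Cre05.g234550 (chromosome 5, 2060640 to 2063875), which rose 8.4-fold. It stood at 39600, 35580 and 38270 CPM at 24 h and 3362, 4148 and 6001 CPM at 3 h, a log2 fold change of 3.07 ± 0.27 (SE, edgeR's adjusted p = 1.85e-08). Cre01.g010900 rose by a log2 fold change of 1.88 ± 0.23 (SE, edgeR's adjusted p = 1.27e-06), with 9814 to 11270 CPM at 24 h and 2078 to 3564 CPM at 3 h. Cre03.g185550 rose by a log2 fold change of 1.66 ± 0.23 (SE, edgeR's adjusted p = 7.36e-06), with 5713 to 7284 CPM at 24 h and 1654 to 2707 CPM at 3 h. Both were called with any 1 control library left out, as was the fall of Cre12.g510650, at 70.6 to 123 CPM at 24 h and 252 to 288 CPM at 3 h (log2 fold change -1.53 ± 0.25 SE, edgeR's adjusted p = 6.48e-05). Cre02.g120150 stood at 18530, 19530 and 17190 CPM at 24 h and 7918, 12920 and 17880 CPM at 3 h, a log2 fold change of 0.51 ± 0.27 (SE, edgeR's adjusted p = 0.129) that passed without control 3 h number 3 (0.82, adjusted p = 0.0154) and without scaling (0.72, adjusted p = 0.000176). Cre02.g120100 stood at 114, 9.32 and 9.81 CPM at 24 h and 146, 157 and 179.5 CPM at 3 h, a log2 fold change of -1.86 ± 0.67 (SE, edgeR's adjusted p = 0.0363). Control 24 h number 1 stood far above the other 24 h libraries at that locus. Without that library the log2 fold change was -4.07 (adjusted p = 1.09e-07), and without control 24 h number 2 (adjusted p = 0.11), number 3 (0.12), or control 3 h number 1 (0.0546) or number 3 (0.0787) the call was lost. Reads with more than 1 alignment are not assigned to genes in these tables, so levels of loci with near-identical copies are uncertain.

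The carbon dioxide list, entered for carbonic anhydrase and other proteins that concentrate carbon dioxide at the carbon-fixing enzyme, had 3 of 5 members with enough reads to test, and all 3 fell. Cre04.g223100 fell to 0.131, 0.497 and 0.273 CPM at 24 h, against 5.77, 4.96 and 3.21 CPM at 3 h, a log2 fold change of -3.92 ± 0.62 (SE, edgeR's adjusted p = 3.78e-05). Cre10.g452800 stood at 35.8, 34.2 and 30.4 CPM at 24 h and 75.2, 70.8 and 66 CPM at 3 h (log2 fold change -1.08 ± 0.21 SE, edgeR's adjusted p = 0.000334). Cre06.g307500 stood at 38.4, 30.8 and 24.9 CPM at 24 h and 68.2, 68.9 and 59.8 CPM at 3 h (log2 fold change -1.07 ± 0.21 SE, edgeR's adjusted p = 0.000405). The libraries of the 2 times did not overlap for any of them, and each was called with any 1 control library left out. Over all features 26.7% were lower without overlap and 21.8% fell.

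**Figure D3:**
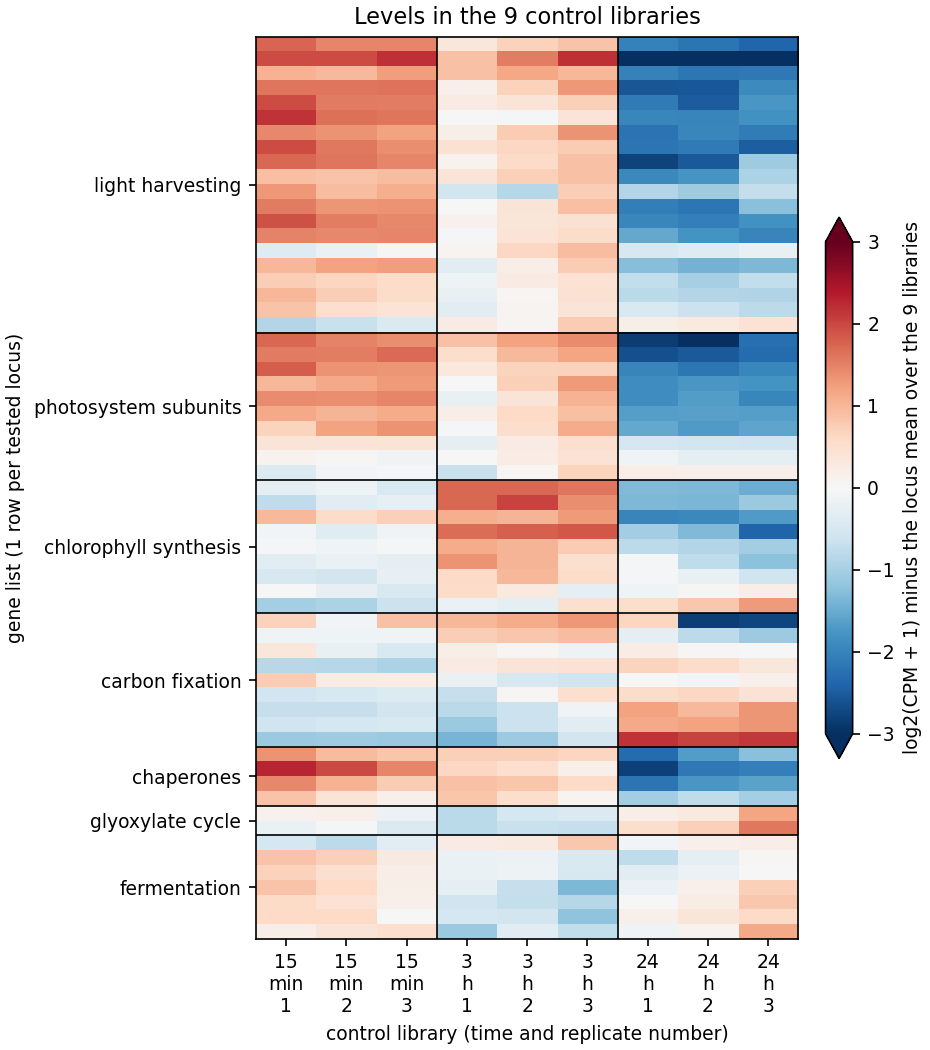
Rows are the tested loci of 7 lists, sorted within a list by log2 fold change, and columns are the 9 control libraries in order of time. Colour is log2(CPM + 1) minus the mean of the locus over the 9 libraries. The antenna and photosystem rows are mostly blue at 24 h, though those of Cre06.g284200 and Cre14.g626700 are not. The chlorophyll rows are mostly red at 3 h alone, and 3 carbon fixation rows are red at 24 h.

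Of the lists for carbon and energy supply in darkness, the glyoxylate and fermentation lists held rises and no falls, and the starch list held both. Both members of the glyoxylate pair rose. The pair stands for malate synthase and isocitrate lyase, which turn acetate into precursors of sugar. Cre03.g144807 (chromosome 3, 356536 to 361981) stood at 221, 252 and 461 CPM at 24 h and 86.7, 95.3 and 93.9 CPM at 3 h, a log2 fold change of 1.76 ± 0.23 (SE, edgeR's adjusted p = 3.29e-06). Cre06.g282800 (chromosome 6, 5284370 to 5288359) stood at 951, 1025 and 1906 CPM at 24 h and 476, 586 and 622 CPM at 3 h, a log2 fold change of 1.20 ± 0.25 (SE, edgeR's adjusted p = 0.000698). Control 24 h number 3 was the highest library for both. Without it the rises were 1.36 (adjusted p = 1.65e-05) for Cre03.g144807 and 0.81 (adjusted p = 0.0115) for Cre06.g282800, both still past the test. At 15 min the pair stood at 112 to 149 CPM and 742 to 940.3 CPM, above the 3 h libraries at both loci.

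The fermentation list was entered for hydrogenases and their assembly factors, pyruvate formate-lyase, pyruvate-ferredoxin oxidoreductase and alcohol dehydrogenase. Of its 7 members 4 rose, 0 fell and 3 did not pass, with a median log2 fold change of 0.99. The list sums overlapped, at 695.7, 877.1 and 1131 CPM at 24 h and 782.6, 776.4 and 645.2 CPM at 3 h. At 15 min the sums were 1584, 1421 and 1094 CPM. The largest rise was that of Cre17.g746997, at 5.36, 6.46 and 14.4 CPM at 24 h and 2.2, 4.53 and 3.21 CPM at 3 h (log2 fold change 1.41 ± 0.52 SE, edgeR's adjusted p = 0.0368). Its control libraries of 15 min, at 7.0, 8.07 and 8.89 CPM, lay above those of 3 h and within the range of 24 h. The members with the highest mean CPM over the 6 libraries together did not pass. Cre01.g044800 stood at 284, 398 and 502 CPM at 24 h and 426, 428 and 354 CPM at 3 h (log2 fold change -0.03 ± 0.39 SE, edgeR's adjusted p = 0.96), and Cre03.g199800 at 160.1, 180.4 and 201 CPM at 24 h and 178, 183 and 145 CPM at 3 h (log2 fold change 0.10 ± 0.29 SE, edgeR's adjusted p = 0.807). Also without a call was Cre06.g306350, lower in every 24 h library, with a log2 fold change of -0.38. These 4 rises were fragile: 0 of them were called without control 24 h number 3 or without control 3 h number 3, and 2 without control 3 h number 1 or number 2. Without scaling 1 was called, and with the replicate number as a block 1 was.

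The starch list, entered for granule-bound starch synthase and starch phosphorylases, moved both ways. Cre07.g336950 fell to 4.7, 5.1 and 6.4 CPM at 24 h, against 18.4, 17.1 and 14.3 CPM at 3 h (log2 fold change -1.63 ± 0.49 SE, edgeR's adjusted p = 0.0133). Cre17.g721500 rose to 23.4, 25.5 and 35.8 CPM at 24 h, against 20.8, 19.1 and 14.6 CPM at 3 h (log2 fold change 0.62 ± 0.22 SE, edgeR's adjusted p = 0.0292), a call lost when control 24 h number 3 (adjusted p = 0.182) or either of control 3 h numbers 2 (0.0517) and 3 (0.101) was left out, and without scaling (0.191). Cre12.g552200 did not pass, at 18.3 to 26.3 CPM at 24 h and 23.2 to 29.4 CPM at 3 h. Alternative oxidases pass electrons from ubiquinol to oxygen without pumping protons, and 0 of 2 loci entered for them passed. Cre09.g395950 stood at 76.8, 102 and 95.4 CPM at 24 h and 71.3, 88.5 and 120.1 CPM at 3 h, with full overlap (log2 fold change -0.03 ± 0.32 SE, edgeR's adjusted p = 0.955). Cre03.g169550 stood at 1.18, 0.497 and 1.36 CPM at 24 h and 0.735, 0.425 and 0.494 CPM at 3 h (log2 fold change 0.78 ± 0.56 SE, edgeR's adjusted p = 0.275).

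The respiratory transcripts of the mitochondrion that could be tested were lower at 24 h than at 3 h in the control arm. The mitochondrial genome of this alga encodes cytochrome b (*cob*), subunit 1 of cytochrome oxidase (*cox1*) and subunits of NADH dehydrogenase (*nad*), all parts of the respiratory chain. Of the 7 respiratory mRNAs in this list 3 had enough reads to test, and all 3 fell, with a median log2 fold change of -2.88. The transcript *nad4* stood at 50.4, 45.4 and 53.1 CPM at 24 h and 174, 380 and 539.9 CPM at 3 h, a log2 fold change of -2.88 ± 0.31 (SE, edgeR's adjusted p = 3.55e-07). The 24 h libraries were close together and below each 3 h library. The transcript *cob* stood at 25.4, 21.9 and 30.1 CPM at 24 h and 29.2, 67.9 and 238 CPM at 3 h, and 1 library of 24 h lay above the lowest of 3 h (log2 fold change -2.10 ± 0.52 SE, edgeR's adjusted p = 0.00417). The transcript *nad5* stood at 1.7, 1.12 and 1.91 CPM at 24 h and 3.46, 9.49 and 97.2 CPM at 3 h (log2 fold change -4.47 ± 1.04 SE, edgeR's adjusted p = 0.00259). In the control libraries of 15 min *cob* stood at 22.2, 36.4 and 44 CPM, overlapping those of 24 h. There *nad5* stood at 2.92, 6.67 and 7.74 CPM and *nad4* at 153 to 290 CPM. In the nitrite arm *cob* (log2 fold change -0.14, edgeR's adjusted p = 0.824) and *nad5* (-0.06, 0.963) did not pass from 3 to 24 h. There *nad4* fell (-1.47, edgeR's adjusted p = 0.000255). The difference in change between the arms did not pass for *cob* (-1.95, edgeR's adjusted p = 0.123) or *nad5* (-4.41, 0.0851). Control 3 h number 3, the library with the most reads of more than 1 alignment, was the highest of the 3 h libraries for each of the 3 transcripts. Without it the log2 fold changes were -2.49 (adjusted p = 1.26e-06) for *nad4*, -0.91 (adjusted p = 0.0322) for *cob* and -2.01 (adjusted p = 0.0272) for *nad5*, all past the test. With only the 6 libraries compared in the fit, *cob* (adjusted p = 0.0735) and *nad5* (0.0852) did not pass. Without control 3 h number 3 and the pair of nitrite libraries named above, *nad5* did not pass (adjusted p = 0.0692). Selection of polyadenylated RNA recovers organelle transcripts in part only, and the part of that library's read composition in the mitochondrial levels was not tested.

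**Figure D4:**
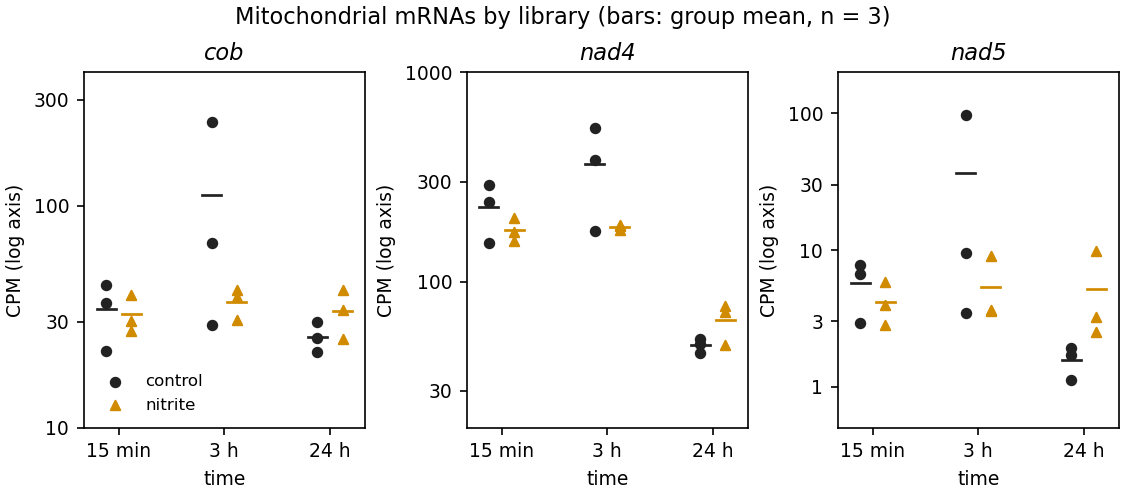
Points are the CPM of *cob*, *nad4* and *nad5* in each library on a log axis, in control and nitrite libraries at the 3 times, and bars are group means. For *cob* the control libraries of 24 h lie between 21.9 and 30.1 CPM, and those of 3 h spread from 29.2 to 237.6 CPM.

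Chaperones fell throughout. Of the 4 loci entered for heat shock proteins 70 and 90, which help proteins fold, all 4 fell, with a median log2 fold change of -2.79, and all 4 were called with any 1 control library left out. Cre08.g372100 stood at 16.2, 22.5 and 25.1 CPM at 24 h and 144, 139 and 116 CPM at 3 h (log2 fold change -2.65 ± 0.27 SE, edgeR's adjusted p = 1.12e-07). Cre09.g386750 stood at 4.18, 7.09 and 7.63 CPM at 24 h and 54.8, 50.4 and 39.1 CPM at 3 h (log2 fold change -2.94 ± 0.51 SE, edgeR's adjusted p = 0.000256). At both loci every 24 h library lay far below every 3 h library. Cre12.g514850 stood at 0.523, 1.37 and 2.18 CPM at 24 h and 11.3, 11.5 and 10.9 CPM at 3 h (log2 fold change -3.05 ± 0.31 SE, edgeR's adjusted p = 1.51e-07). Cre06.g250100 changed least, at 15.8, 19.6 and 16.1 CPM at 24 h and 60.6, 49.2 and 35.6 CPM at 3 h (log2 fold change -1.50 ± 0.21 SE, edgeR's adjusted p = 9.85e-06).

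The enzymes against oxidative stress moved apart. The list held loci entered for catalase, which removes hydrogen peroxide, glutathione peroxidase and iron superoxide dismutase. Cre10.g436050 fell 5.47-fold, to 8.36, 6.59 and 6.95 CPM at 24 h, against 30.8, 45.1 and 44.7 CPM at 3 h (log2 fold change -2.45 ± 0.23 SE, edgeR's adjusted p = 5.94e-08). Cre09.g417150 rose, to 266, 305 and 368 CPM at 24 h, against 148, 164 and 165 CPM at 3 h (log2 fold change 0.98 ± 0.25 SE, edgeR's adjusted p = 0.00389). Each was called with any 1 control library left out. Cre10.g458450 did not pass, at 20, 21 and 23.3 CPM at 24 h and 19.1, 19.6 and 23.7 CPM at 3 h.

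Loci of nitrogen metabolism are of interest because the other arm of the study received nitrite. Of 7 loci entered for uptake and reduction of nitrate and nitrite 4 had enough reads to test, and 1 fell, a share near the 21.8% of all features. Cre09.g410800 had 4 reads over the 24 h libraries, at 0.131, 0.249 and 0.136 CPM at 24 h and 6.4, 4.53 and 5.44 CPM at 3 h, a log2 fold change of -4.86 ± 0.66 (SE, edgeR's adjusted p = 8.48e-06), and was called with any 1 control library left out. Cre09.g410900 was also lower in every 24 h library, at 0.392, 0.622 and 0.273 CPM at 24 h and 1.99, 2.12 and 0.989 CPM at 3 h, without a call (log2 fold change -2.01 ± 0.89 SE, edgeR's adjusted p = 0.081). It passed without the libraries labelled nitrite 15 min number 2 and nitrite 3 h number 2 (adjusted p = 0.00528). Cre03.g177700 stood at 7.05, 9.45 and 5.99 CPM at 24 h and 11.3, 5.95 and 0.247 CPM at 3 h. The log2 fold change there was 0.22 ± 0.46 (SE, edgeR's adjusted p = 0.729), and -0.22 without control 3 h number 3. Cre09.g396000 had under 1 CPM in each of the 6 libraries. Of the glutamine synthetase loci, whose enzymes bind ammonium into glutamine, Cre02.g113200 rose. It stood at 128, 136 and 102 CPM at 24 h and 50.4, 55.7 and 62.8 CPM at 3 h (log2 fold change 1.12 ± 0.18 SE, edgeR's adjusted p = 4.11e-05), called with any 1 control library left out. Cre12.g530650 did not pass, at 1805 to 2129 CPM at 24 h and 1366 to 2124 CPM at 3 h.

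The nitric oxide list, entered for truncated hemoglobins and a P450 enzyme that reduces nitric oxide, had 2 of 3 members that fell. Cre14.g615350 stood at 17.4, 16.7 and 4.5 CPM at 24 h and 49.1, 57.4 and 51.2 CPM at 3 h (log2 fold change -2.03 ± 0.57 SE, edgeR's adjusted p = 0.00971). Its 15 min libraries, at 16.7 to 18.9 CPM, were also below those of 3 h. Cre01.g007950 stood at 184, 184 and 321 CPM at 24 h and 386, 376 and 379 CPM at 3 h (log2 fold change -0.73 ± 0.23 SE, edgeR's adjusted p = 0.014), a call lost without control 24 h number 1 (adjusted p = 0.0768) or number 2 (0.081), or without scaling (0.0944). Cre14.g615400 was lower in every 24 h library, at 140.5, 139.6 and 115 CPM at 24 h and 152, 158 and 168 CPM at 3 h, without a call (log2 fold change -0.28 ± 0.19 SE, edgeR's adjusted p = 0.245).

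Tubulin, the subunit of microtubules and flagella, was lower at 24 h in 3 of 4 loci without overlap, of which 1 passed. Over all features 26.7% were lower without overlap and 21.8% fell, so the share that passed was near that of all features. Cre12.g549550 stood at 30.8, 54.1 and 51 CPM at 24 h and 173, 186 and 249.7 CPM at 3 h (log2 fold change -2.16 ± 0.43 SE, edgeR's adjusted p = 0.000745), called with any 1 control library left out. Cre03.g190950 stood at 147, 184 and 204 CPM at 24 h and 274, 317 and 454 CPM at 3 h (log2 fold change -0.96 ± 0.40 SE, edgeR's adjusted p = 0.0625), and Cre04.g216850 at 104, 138 and 154 CPM at 24 h and 169.5, 177 and 279 CPM at 3 h (log2 fold change -0.66 ± 0.41 SE, edgeR's adjusted p = 0.214). In the fit without the libraries labelled nitrite 15 min number 2 and nitrite 3 h number 2 both passed (adjusted p = 0.000481 and 0.0142), which makes 3 of 4, and without control 3 h number 3 as well 2 of 4 passed. Cre12.g542250 overlapped between the times, at 52.5 to 109 CPM at 24 h and 79.7 to 98.9 CPM at 3 h. Of the cell cycle pair, entered for a cyclin-dependent kinase and the sliding clamp of DNA replication, Cre08.g372550 fell to 0.131, 0.497 and 1.09 CPM at 24 h, against 2.62, 6.23 and 5.19 CPM at 3 h (log2 fold change -2.98 ± 0.53 SE, edgeR's adjusted p = 0.000142). Cre12.g515850 did not pass, at 6.92, 8.46 and 7.22 CPM at 24 h and 5.56, 10.5 and 9.64 CPM at 3 h.

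The same interval in the arm with nitrite, which shares no library with the control arm, gives the change in cultures that had received nitrite. In the control arm 5637 features changed, and in the nitrite arm 7825 did (57.7%), 3671 higher and 4154 lower at 24 h. Of the features that rose in the control arm, 2227 also rose in the nitrite arm, which is 83.1% of the control list and 60.7% of the nitrite list. Of those that fell, 2501 fell in both, 84.6% of the control list and 60.2% of the nitrite list. Opposite calls were made for 21 features. The counts of the nitrite arm include nitrite 3 h number 2, which lay nearer to the nitrite 15 min group (39.4) than to its own (76.3). The test of the difference itself found 750 features (5.53%) whose change from 3 to 24 h differed between the arms, 335 toward higher and 415 toward lower values in the control arm. Among the features that rose in the control arm 210 differed, and the rise was smaller in the control arm in 193 of them. Among those that fell 220 differed, and the fall was smaller in the control arm in 170.

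The count of features that differed between arms rested on single libraries. It was 406 without control 24 h number 1, 393 without control 24 h number 2, 1160 without control 3 h number 1, 471 without control 3 h number 2 and 445 without nitrite 24 h number 1. Without the libraries labelled nitrite 15 min number 2 and nitrite 3 h number 2 it was 1338.

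Of the 90 tested loci in the lists, 2 differed between arms past the test, a lower share than the 5.53% of all features tested. Cre07.g346050 of the chlorophyll list, named after its values were seen, changed by -3.71 on the log2 scale in the control arm and by -6.13 in the nitrite arm, a difference of 2.41 (SE 0.58, edgeR adjusted p = 0.0177). The call was lost with DESeq2 (adjusted p = 0.0595) and without nitrite 24 h number 2 (0.103) or number 3 (0.0589). In the control arm it stood at 1.18, 1.24 and 1.64 CPM at 24 h and 17.3, 16.6 and 20 CPM at 3 h. In the nitrite arm it stood at 0.359, 0 and 0.157 CPM at 24 h and 13.7, 13.4 and 11.4 CPM at 3 h. The nitrite value rests on few reads: 3 reads remained at 24 h against 360 at 3 h, a ratio of 0.0131 (exact 95% interval 0.00268 to 0.0385, counting error only). The transcript *nad4* changed by -2.88 in the control arm and by -1.47 in the nitrite arm, a difference of -1.41 (SE 0.41, edgeR adjusted p = 0.0492). For *nad4* the nitrite libraries stood at 71.4, 76.2 and 49.8 CPM at 24 h and 176, 184 and 186 CPM at 3 h. The call for *nad4* was lost in 16 of the alternatives run, at adjusted p of 0.0507 to 0.312. Among them were no scaling (-0.48, adjusted p = 0.312), voom (0.073), no filter on low counts (0.0507), the replicate number as a block (0.0507), the pair of nitrite libraries left out (0.0704) and most single libraries left out, such as control 3 h number 3 (-1.03, adjusted p = 0.139). For no antenna, photosystem, carbon fixation or chaperone locus did the arms differ past the test, which does not show that they changed alike.

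**Figure D5:**
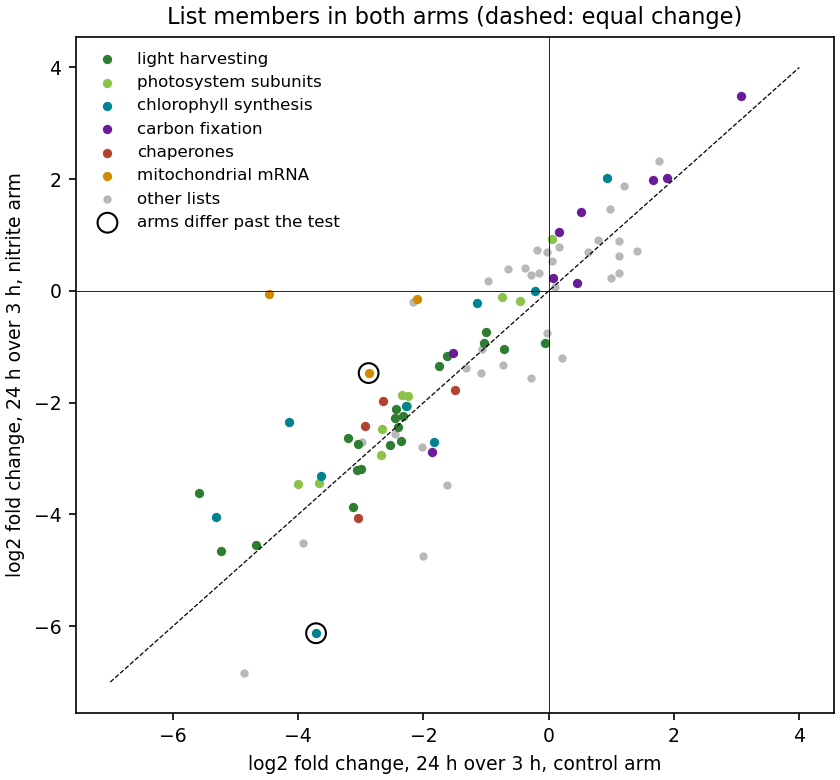
Each point is a tested list member, with its log2 fold change, 24 h over 3 h, in the control arm on the x axis and in the nitrite arm on the y axis. Most antenna and photosystem loci lie near the dashed line of equal change, and the 2 circled points, Cre07.g346050 at -3.71 and -6.13 and *nad4* at -2.88 and -1.47, differ past the test.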

How the data were processed

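Polyadenylated RNA of 18 libraries, 6 groups of 3, had been sequenced. The authors deposited raw read counts, whole numbers for each gene, and the submitters' processing notes name TopHat2 2.0.13 and HTSeq. Genome build and counting options: not given in the sources used here. Each table's 5 summary lines were left out of library sizes; reads with more than 1 alignment made up 16.7% to 36.5% of a table. Totals over genes were 6695500 to 8469882 reads, and intervals from reads cover counting error only.

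With edgeR 4.0.16 in R 4.3.3, features were filtered by filterByExpr (minimum count 10) and scaled by TMM. All 18 libraries entered 1 quasi-likelihood model with 12 residual degrees of freedom. Benjamini-Hochberg adjustment ran over 13564 features, and a feature is said to have changed at an adjusted p under 0.05. The standard error (SE) is the log2 fold change divided by the root of the F statistic. Alternatives were DESeq2 1.42.0, voom in limma 3.58.1, other scaling, filters and blocks, and libraries left out. The procedure was tested on simulated data. Replicate pairs differed beyond sampling noise (chi-square per degree of freedom of at least 9.98).

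Coordinates come from a gene table for Chlamydomonas_reinhardtii_v5.5, to which 17738 of 17741 nuclear identifiers matched. Named loci are the 2 largest rises and 2 largest falls without overlap at a mean log2 CPM of at least 1, the tested organelle genes, the 2 members of each list with the highest CPM and its largest rise and fall, and all members of lists with 4 or fewer tested; others were named after their values were seen. Members and lists were chosen with earlier results of these data known.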

Additional observations from a re-analysis of the deposited data

Results flagged for a closer look

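For 2 of the 90 tested list members the change from 3 to 24 h differed between the arms by the test of the difference. That share was lower than the 5.53% of all features tested. Cre07.g346050, of the chlorophyll list, fell less deeply in the control arm: the log2 fold change was -3.71 in the control arm and -6.13 in the nitrite arm, a difference of 2.41 (edgeR adjusted p = 0.0177). The difference lay between 1.86 and 3.31 over the alternatives run, and it did not pass with DESeq2 (adjusted p = 0.0595) or without nitrite 24 h number 2 (0.103) or number 3 (0.0589). The mitochondrial transcript *nad4* fell more deeply in the control arm, with -2.88 in the control arm and -1.47 in the nitrite arm, a difference of -1.41 (edgeR adjusted p = 0.0492). Over the alternatives it lay between -1.74 and -0.48, and the call was lost in 16 of them.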

How the results depend on the processing

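The count of features changed in the control arm lay between 3973 (without scaling beyond library totals) and 6601 over the alternatives run on the whole list, within 1.5 times of 5637, with 4620 to 5206 when 1 control library was left out. With a change of at least 2-fold required as well it was 3546, of which 1459 were higher at 24 h. The count of features that differed between arms was 1131 without scaling, 1338 without nitrite 15 min number 2 and nitrite 3 h number 2, 1337 without these and control 3 h number 3 (chosen after seeing the data), and 393 to 1160 with 1 library left out. Where scaling shrank or raised a count, the cause was not tested. With the replicate number as a block 5315 features changed and 646 differed between arms. Correlations of same-numbered libraries were -0.0547, 0.0789 and 0.0502, and not every library correlated best with its own number. With 3 libraries per group these values cannot settle whether a number marks the same flask.

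Loci that did not pass changed sign near 0. Cre09.g395950 was 0.13 without scaling and 0.19 without the 3 libraries named above, and Cre03.g177700 was -0.23 without those 3. With 1 control library left out, the log2 fold change ran from -0.24 to 0.16 for Cre01.g044800, -0.19 to 0.19 for Cre09.g395950, -0.51 to 0.031 for Cre12.g542250, -0.011 to 0.15 for Cre10.g458450, -0.23 to 0.42 for Cre14.g626700, -0.42 to 0.052 for Cre12.g515850 and -0.22 to 1.07 for Cre03.g177700. Over every result and alternative run, 1870 values kept direction and side of the threshold, 68 lost a call, 17 gained one, 34 moved and 14 changed sign. Depth limits the loci with few reads at 24 h, where 3 or 4 reads carry the level.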

Other observations

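Features that changed the same way also stood side by side on the chromosomes in places, as a description with no test. Runs of 7 tested neighbours that all rose lay on chromosome 6 (5717605 to 5754742, log2 fold changes 0.57 to 2.98) and on chromosome 8 (1557525 to 1621147, 1.59 to 2.49). A run of 6 neighbours that all fell lay on chromosome 6 (7513707 to 7557056, -6.52 to -0.70). The median genomic span, introns included, was 4533 bases for features that rose, 4490 for those that fell and 4846 for the rest. Of the features that rose 9 had no read in any 3 h library, and of those that fell 19 had no read in any 24 h library. These counts cover called features only. A feature without reads at 1 time passed the read filter through libraries of other groups.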
